A study of Mus musculus with 3 samples.

Results

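Polycomb group genes encode 2 families of chromatin complexes that hold developmental genes in a repressed state. Polycomb repressive complex 2 (PRC2) methylates histone H3 at lysine 27, and Polycomb repressive complex 1 (PRC1) ubiquitinates histone H2A. In embryonic stem cells both complexes sit at CpG-rich promoters of lineage regulators, and accessory subunits that bind DNA or other factors help to bring them there. The 10 genes described here were taken by symbol from the 32285 genes of the feature lists, and each symbol matched 1 gene. The core members were the PRC2 genes Ezh2, Eed and Suz12 and the PRC1 genes Rnf2 and Ring1. The accessory members were Jarid2, Mtf2 and Epop of PRC2, and Pcgf6 and Kdm2b of PRC1. Pcgf6 and Kdm2b each mark a variant form of PRC1 and are not needed by every PRC1 complex.

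The study asked how blocking translation changes the transcriptome of E14 cells, an embryonic stem cell line of 129/Ola mice kept in medium with serum and leukemia inhibitory factor. The 3 groups were cells given ethanol alone for 6 h (the control), cells given 250 µg/mL cycloheximide for 3 h, and cells given the same dose for 6 h. Cycloheximide stops elongation by the ribosome, the stated ethanol concentration was 0.007%, and exposure began 24 h after seeding. Each group was 1 library of 1 cell line, made from frozen cells with 10x Genomics 3' v3 chemistry, and no ethanol library of 3 h was analysed here. Differences below therefore compare libraries and have no replicate check, and every 95% interval covers counting error only.

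Barcodes with at least 15000 unique molecular identifiers (UMIs) and 1 to 20% of UMIs from mitochondrial (mt-) genes were kept. This left 2187 control barcodes, 1739 of the 3 h library and 2554 of the 6 h library, with 106842407 to 140321458 UMIs per library and medians of 43160 to 51726 UMIs per barcode. The mitochondrial share was 4.57% in control cells, 3.52% after 3 h and 2.94% after 6 h. Pairs of libraries shared 1 to 3 barcode sequences. All 9 stem cell markers exceeded 10 counts per 1000000 UMIs (CPM), with summed levels of 7201 to 8166 CPM that were mostly Dppa5a (4771 CPM in the control). Singly, 7 of the 9 were below the control at 6 h in CPM. Their median log2 ratio was -0.22, beside 0.17 for the 7608 genes that averaged at least 10 CPM. Against 3 h, 5 were at least 1.5-fold lower at 6 h (Sox2, Klf4, Esrrb, Zfp42 and Utf1), or 55.6% beside 2.52% of those genes. Against control, 2 were at least 1.5-fold lower at 6 h, or 22.2% beside 7.79%. These were Zfp42, with a log2 ratio of -0.93, and Utf1, with one of -0.73. Feeder fibroblast markers summed to 1.29 to 2.48 CPM, and Col3a1, Lum and Postn were at 0 in every library. Trophectoderm markers summed to 11.1 CPM without cycloheximide, 20.3 CPM after 3 h and 23.2 CPM after 6 h, mostly Tfap2c, with Elf5 at 0. Gata3 and Cdx2 were also above the control at both times, but Eomes was below it (log2 ratios of -0.63 and -0.43). Markers of primitive endoderm, neural progenitors and 2-cell-like cells summed to between 0 and 23.6 CPM per list. These sums join genes that differed in direction. In primitive endoderm, Sox7 (618, 141 and 42 UMIs), Gata6 and Dab2 were below the control at 6 h in CPM. Sox17, Gata4 and Pdgfra were above it. The part of the mitochondrial share and of these markers in the results was not tested, and with 1 library per group it cannot be told apart from the treatment.

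Levels are UMIs summed over the kept barcodes of a library and divided by their total, in CPM. Since 3' tags count transcript ends once per molecule and capture differs between genes, levels are compared between libraries and not between genes. The 7608 genes that averaged 10 CPM or more had a median log2 ratio to the control of 0.11 after 3 h and 0.17 after 6 h. Scaling by TMM factors moved every log2 ratio by -0.17 at 3 h and -0.29 at 6 h, and by mean UMIs per barcode by 0.27 and 0.11. A percentile among the 7608 genes, which no scaling changes, is therefore given for the ratios of the members to the control.

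Many Polycomb targets and several of these genes start within CpG-rich DNA, and the proteins encoded by Kdm2b and Mtf2 are themselves known to bind unmethylated CpG. The 250 bases before the annotated start are shown for 2 accessory genes that were lower after cycloheximide and 1 that was higher, with each CpG in capitals. They come from RefSeq on GRCm38.p6, which held 9 of the 10 members (no entry for Epop), and are written in the direction of transcription.
Jarid2 (chr13:44730524-44730773, plus strand): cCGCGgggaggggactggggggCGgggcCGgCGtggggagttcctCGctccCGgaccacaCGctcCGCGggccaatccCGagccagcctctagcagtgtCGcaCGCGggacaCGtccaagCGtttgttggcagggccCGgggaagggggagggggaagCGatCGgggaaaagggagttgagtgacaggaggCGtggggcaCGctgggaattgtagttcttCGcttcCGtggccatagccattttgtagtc
Kdm2b (chr5:122900368-122900617, minus strand): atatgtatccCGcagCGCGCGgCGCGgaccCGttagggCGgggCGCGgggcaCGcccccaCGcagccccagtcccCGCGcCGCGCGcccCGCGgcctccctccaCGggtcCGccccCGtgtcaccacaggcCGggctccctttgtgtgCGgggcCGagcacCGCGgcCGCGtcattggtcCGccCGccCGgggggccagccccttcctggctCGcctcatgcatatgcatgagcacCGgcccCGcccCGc
Mtf2 (chr5:108065424-108065673, plus strand): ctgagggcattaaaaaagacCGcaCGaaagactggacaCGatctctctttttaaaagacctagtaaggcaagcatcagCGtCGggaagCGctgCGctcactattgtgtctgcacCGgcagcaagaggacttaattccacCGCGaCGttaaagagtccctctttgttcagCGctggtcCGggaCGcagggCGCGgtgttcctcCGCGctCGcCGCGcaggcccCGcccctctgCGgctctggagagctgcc
The Jarid2 window held 23 CpG, the Kdm2b window 36 and the Mtf2 window 23, against a median of 6 over 32851 windows of the same length. Of the 14 windows of the members, 13 had more than that median. The count differed between starts of 1 gene: the second Mtf2 start had 2 CpG, the second Jarid2 start 22, and the other Kdm2b starts 12, 27 and 38. In the GENCODE M21 annotation none of the 3 windows held an exonic base. The Jarid2 and Kdm2b windows lie within the gene, and the Mtf2 window ends 1 base before the gene's annotated start. Kdm2b has 4 starts in the table and Jarid2 and Mtf2 have 2 each, and a 3' tag does not tell which start a transcript used.

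Core subunits of PRC2 are described first. Ezh2 (ENSMUSG00000029687, chromosome 6, 47530139 to 47595341), the methyltransferase, stood at 186.7 CPM without cycloheximide, 174.6 CPM after 3 h of it and 185.3 CPM after 6 h. The 3 h library was slightly below the others, whose counting intervals overlapped. Its log2 ratio to control was -0.10 after 3 h, with an interval of -0.13 to -0.07, and -0.01 after 6 h, with an interval of -0.04 to 0.02. Suz12 (ENSMUSG00000017548, chromosome 11, 79993106 to 80034123), the scaffold on which accessory subunits assemble, had 88.9, 85.5 and 86.8 CPM in the same order. Its log2 ratios were -0.06 and -0.03, and the counting interval at 6 h included 0. Eed (ENSMUSG00000030619, chromosome 7, 89954654 to 89980983), which reads the methyl mark and activates the enzyme, differed from both. It stood at 207.5 CPM without cycloheximide, 269.2 CPM after 3 h of it and 273.4 CPM after 6 h, so both treated libraries were above the control and close to each other. The log2 ratio of Eed was 0.38 after 3 h (0.35 to 0.40) and 0.40 after 6 h of exposure (0.37 to 0.42), at percentiles 74.3 and 67.5 of all genes tested.

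Core subunits of PRC1 stayed close to the control. Rnf2 (ENSMUSG00000026484, chromosome 1, 151458004 to 151500955), the main ubiquitin ligase in stem cells, stood at 62.9 CPM without cycloheximide, 65.0 CPM after 3 h of it and 61.2 CPM after 6 h. Its log2 ratios were 0.05 and -0.04, and the interval at 6 h (-0.09 to 0.01) included 0. Ring1 (ENSMUSG00000024325, chromosome 17, 34020792 to 34024680), its paralog, was the 1 member under the floor of 10 CPM. It had 743 UMIs or 6.67 CPM in control cells, 7.49 CPM after 3 h and 7.47 CPM after 6 h, and its log2 ratio of 0.16 at 6 h had an interval of 0.03 to 0.30. The signs of Ezh2, Suz12, Rnf2 and Ring1 against the control depended on the scaling at one time or both, so no direction is given for them.

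The accessory subunits went both ways. Epop (ENSMUSG00000043439, chromosome 11, 97627389 to 97629702), which joins PRC2 to Elongin B and C, moved furthest of the 10 members. The control held 188.7 CPM of Epop (186.2 to 191.3), the 3 h library 133.6 CPM (131.5 to 135.9) and the 6 h library 57.7 CPM (56.5 to 59.0). The control was highest and the 6 h library lowest, with no overlap of counting intervals. Epop was 1.41-fold lower at 3 h and 3.27-fold lower at 6 h, a log2 ratio of -0.50 (-0.53 to -0.47) and -1.71 (-1.75 to -1.67). These values lay at percentiles 3.26 and 0.644 of the 7608 genes. Between 3 h and 6 h its log2 ratio was -1.21 (-1.25 to -1.17), at percentile 0.434.

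Jarid2 (ENSMUSG00000038518, chromosome 13, 44729474 to 44921643), a DNA-binding subunit that defines the other accessory form of PRC2, was lower mainly at 6 h. Its levels were 305.3 CPM in control cells, 275.0 CPM after 3 h and 164.0 CPM after 6 h. The log2 ratio was -0.15 after 3 h (-0.17 to -0.13) and -0.90 after 6 h of exposure (-0.92 to -0.87), or 1.86-fold lower at 6 h. The 3 h value, at percentile 19.1, turned to 0.12 by mean UMIs per barcode. At 6 h Jarid2 was lower under each scaling, at percentile 3.14. Between 3 h and 6 h the log2 ratio was -0.75 (-0.77 to -0.72).

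Kdm2b (ENSMUSG00000029475, chromosome 5, 122870665 to 122989823), the CpG-binding demethylase of a variant PRC1, stood at 44.7 CPM without cycloheximide, 32.8 CPM after 3 h of it and 22.7 CPM after 6 h. As for Epop, each longer exposure had the lower level, with counting intervals apart. Its log2 ratio was -0.44 after 3 h (-0.51 to -0.38) and -0.98 after 6 h of exposure (-1.04 to -0.91), at percentiles 4.31 and 2.497. It was 1.97-fold lower at 6 h. Epop and Kdm2b were lower at both times under each of the 3 scalings.

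Mtf2 and Pcgf6 were higher. Mtf2 (ENSMUSG00000029267, chromosome 5, 108065674 to 108109004), which binds CpG-rich DNA and defines the PRC2 form that can also hold Epop, stood at 300.0 CPM without cycloheximide, 403.0 CPM after 3 h of it and 403.9 CPM after 6 h. The 2 treated libraries did not differ beyond counting error, and both were above the control. The log2 ratio was 0.43 at each time (0.41 to 0.45), at percentiles 78.1 and 69.5. Pcgf6 (ENSMUSG00000025050, chromosome 19, 47033617 to 47050906), which defines the PRC1 form that includes Mga and Max, stood at 61.6 CPM without cycloheximide, 75.8 CPM after 3 h of it and 81.7 CPM after 6 h. Its log2 ratio was 0.30 after 3 h (0.25 to 0.35) and 0.41 after 6 h of exposure (0.36 to 0.45). Eed, Mtf2 and Pcgf6 were above the control at both times under each scaling, but at percentiles of 67.5 to 78.1, so many other genes were as high or higher.

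**Figure D1:**
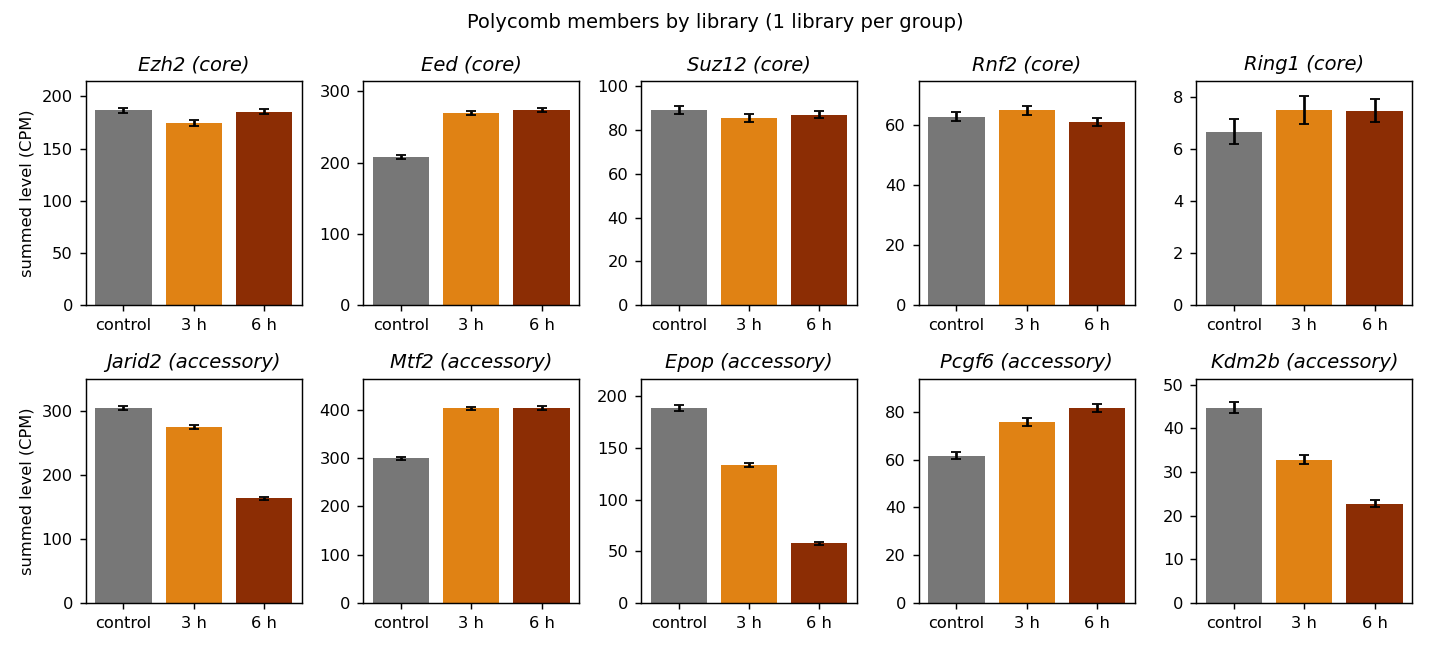
Summed level of each member in CPM (vertical axis, from 0, scaled per gene) in the control, 3 h and 6 h libraries, with 95% Poisson intervals as error bars. Epop goes from 188.7 to 57.7 CPM, Jarid2 and Kdm2b also end lowest at 6 h, and Eed, Mtf2 and Pcgf6 are higher in both treated libraries.

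A fold of 1.5 was used to count differences, since 1 library per group allows no test. At 3 h, 0 of 10 members were at least 1.5-fold higher, beside 13.9% of the 7608 genes, and 0 were at least 1.5-fold lower, beside 2.13%. At 6 h, 0 members were higher, beside 22.1% of genes, and 3 were lower (Epop, Jarid2 and Kdm2b), beside 7.79%. At 6 h against 3 h, 0 members were higher (1.74% of genes) and 2 were lower, Epop and Jarid2 (2.52% of genes). In CPM only Epop was at least 2-fold lower, at 6 h (2.41% of genes) and at 6 h against 3 h (0.657%). By TMM factors Kdm2b (-1.27) and Jarid2 (-1.18) were also 2-fold lower at 6 h, beside 5.19% of genes on that scale. No member was 2-fold higher in any comparison (4.32%, 8.65% and 0.145% of genes) or 2-fold lower at 3 h (0.513%). By TMM factors Epop and Kdm2b also passed 1.5-fold lower at 3 h, and by mean UMIs per barcode Eed and Mtf2 passed 1.5-fold higher at 3 h, beside 5.23% of genes lower by TMM factors and 30.1% higher by UMIs per barcode. At 6 h against 3 h Kdm2b joined the lower members under both other scalings. Beside them, 4.22% of genes were lower by TMM factors and 5.28% by mean UMIs per barcode. At 6 h the split over all genes also turned with the scaling, to 11.6% higher and 16.9% lower by TMM factors. By mean UMIs per barcode it was 27.8% higher and 5.49% lower, and the same 3 members were lower under each scaling. Ring1, under the floor, is counted among the 10 members but not among the 7608 genes. The median log2 ratio of the 10 members was -0.004 at 3 h and -0.02 at 6 h, below the 0.11 and 0.17 of all genes tested.

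**Figure D2:**
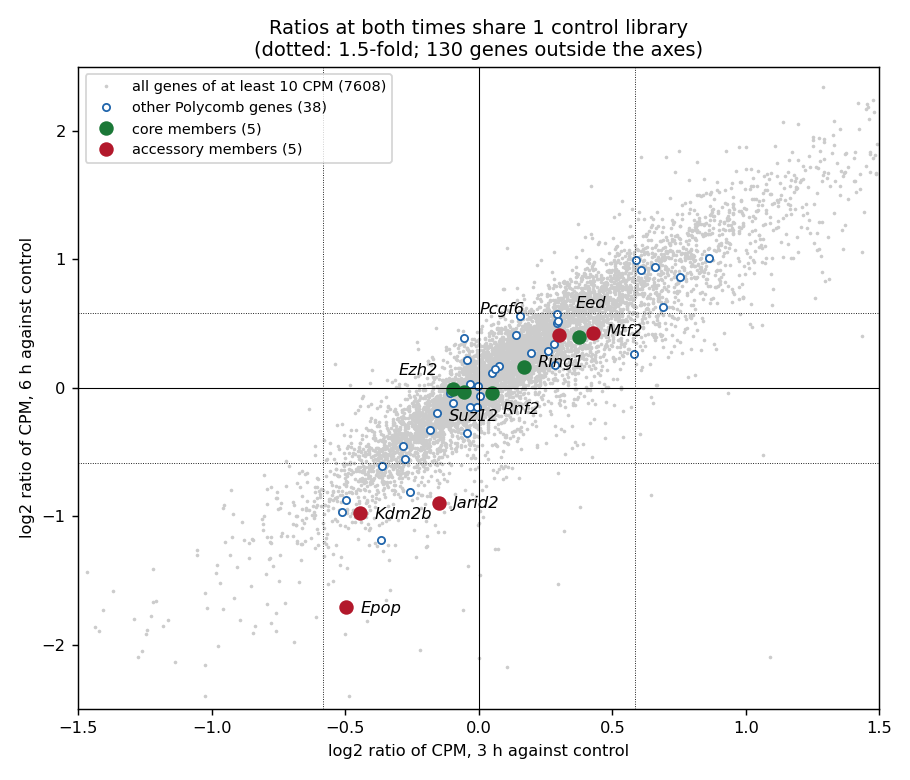
Log2 ratio of CPM at 3 h (horizontal) and 6 h (vertical) against the same control library, for 7608 genes (grey), 38 other Polycomb genes (open circles), core members (green) and accessory members (red). Core members sit near 0 or above it, while Epop, Jarid2 and Kdm2b lie in the lower left, Epop at -0.50 and -1.71.

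The comparison of core with accessory subunits used the grouping above, whose members were chosen with earlier results of these data known. It was made without a test. At 3 h the core members had a median log2 ratio of 0.05 and the accessory members one of -0.15, and at 6 h these were -0.01 and -0.90. The accessory median lay below the core median, with a difference of -0.20 (-0.25 to -0.15) for 3 h, -0.89 (-0.92 to -0.85) for 6 h and -0.56 (-0.64 to -0.48) between both times. Each interval covers only the counts of the median gene of each group, not the spread within a group. These genes were Rnf2 and Jarid2 for 3 h, Ezh2 and Jarid2 for 6 h, and Suz12 and Kdm2b between both times. The differences do not depend on the scaling of a library. They do depend on membership: without Epop the difference was 0.03 at 3 h and -0.23 at 6 h, and with Pcgf6 moved to the core it was -0.41 and -1.01. The accessory members were also more spread than the core members. At 6 h the accessory log2 ratios ran from -1.71 to 0.43, a span of 2.14, and the core ratios from -0.04 to 0.40, a span of 0.44. The accessory label thus joined 3 genes that were lower and 2 that were higher.

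Ratios between transcripts of 1 complex remove the scaling altogether. Ezh2 relative to Suz12 had a log2 change of -0.04 after 3 h (-0.09 to 0.01) and 0.02 after 6 h of exposure (-0.02 to 0.07), and both intervals included 0. Eed relative to Suz12 was higher by 0.43 at both times, and Mtf2 by 0.48 and 0.46. Epop relative to Suz12 was lower, with a log2 change of -0.44 after 3 h (-0.49 to -0.39) and -1.67 after 6 h of exposure (-1.73 to -1.62). Jarid2 had -0.09 (-0.14 to -0.05) and -0.86 (-0.91 to -0.82) on the same scale. Epop and Mtf2, which can be present in the same PRC2 form, thus moved apart, and their UMI ratio was 1.90-fold lower than in the control at 3 h and 4.40-fold lower at 6 h.

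For PRC1, Rnf2 served as the reference. Ring1 relative to Rnf2 had a log2 change of 0.12 after 3 h (-0.03 to 0.27) and 0.20 after 6 h of exposure (0.06 to 0.35), from few UMIs. Pcgf6 relative to Rnf2 was higher by 0.25 after 3 h (0.18 to 0.32) and 0.45 after 6 h of exposure (0.38 to 0.51). Kdm2b relative to Rnf2 had -0.49 (-0.57 to -0.41) and -0.94 (-1.02 to -0.86). The ratio of Kdm2b to Pcgf6, the markers of 2 variant PRC1 forms, was 1.67-fold lower than in the control at 3 h and 2.61-fold lower at 6 h.

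**Figure D3:**
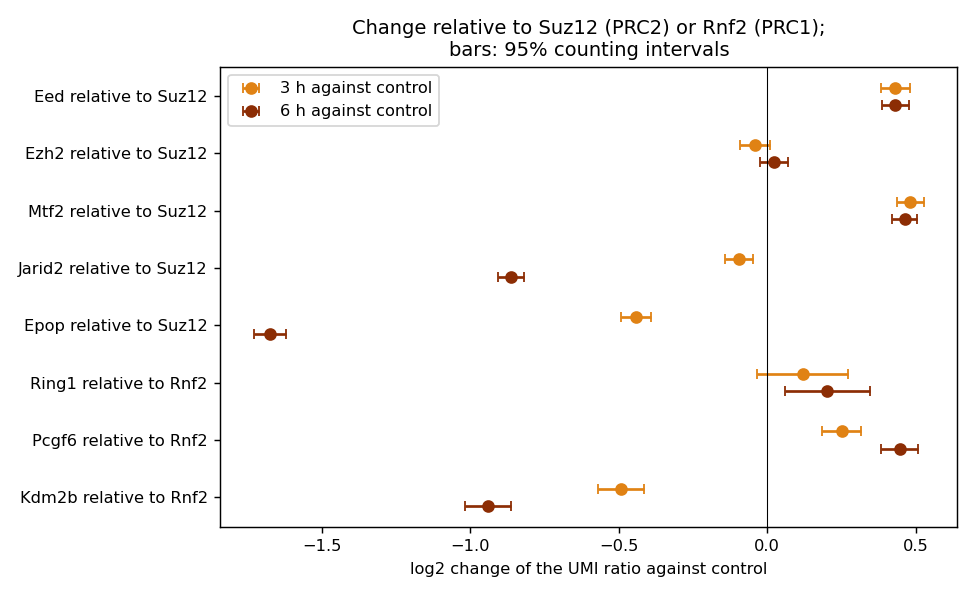
Log2 change against control (horizontal) of the UMI ratio of a member to Suz12 or to Rnf2, at 3 h (orange) and 6 h (brown), with 95% counting intervals. Ezh2 stays at 0 within its intervals, Eed, Mtf2 and Pcgf6 lie to the right, and Epop reaches -1.67.

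Per-barcode counts were compared after each kept barcode was thinned to 15000 UMIs, which left out no kept barcode. The share of barcodes with at least 1 Epop UMI was 88.2% among control barcodes, 81.4% after 3 h and 52.9% after 6 h, with exact binomial intervals of 86.8 to 89.6%, 79.5 to 83.2% and 50.9 to 54.8%. A second thinning gave 90.1%, 83.2% and 53.1%. The mean was 2.70 Epop UMIs per thinned control barcode, 1.98 after 3 h and 0.890 after 6 h. Barcodes with 5 or more Epop UMIs made up 16.8% in control cells, 8.28% after 3 h and 1.096% after 6 h. The most frequent number of Epop UMIs per barcode was 2 without cycloheximide, 1 after 3 h and 0 after 6 h. Unthinned, the shares with an Epop UMI were 98.6%, 98.4% and 83.2%.

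The share with a Jarid2 UMI was 96.7% in control cells, 95.9% after 3 h and 87.6% after 6 h, and the median went from 4 to 4 to 2 UMIs. For Kdm2b the shares were 47.4% (45.3 to 49.5), 38.4% (36.1 to 40.8) and 27.7% (26.0 to 29.5). For Mtf2 the share was 97.2%, 98.8% and 99.2%, and barcodes with 5 or more UMIs went from 42.4% to 65.1% and 61.7%. Eed was detected in 94.7%, 98.2% and 97.7% of thinned barcodes, and Pcgf6 in 56.5%, 68.3% and 70.4%. Ezh2 was detected in 91.8%, 91.4% and 92.1%, Suz12 in 70.4%, 69.8% and 69.9%, and Rnf2 in 58.6%, 61.1% and 60.0%. Ring1 was detected in 9.69%, 8.86% and 10.4% of thinned barcodes. These orders followed the CPM for the 3 lower and 3 higher genes, apart from Eed and Mtf2 at 3 h and 6 h, which were close on both measures. Unthinned shares of Jarid2 were 99.95%, 99.8% and 98.5%, of Kdm2b 80.8%, 75.7% and 63.5%, of Mtf2 99.95%, 99.9% and 99.9%, and of Eed 99.8%, 99.9% and 99.9%. Those of Pcgf6 were 89.8%, 94.7% and 94.6%, of Ezh2 99.3%, 99.4% and 99.3%, of Suz12 94.7%, 96.1% and 94.8%, of Rnf2 90.4%, 92.5% and 91.4%, and of Ring1 27.5%, 33.3% and 31.2%.

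Free RNA in the droplets was read from barcodes of 10 to 100 UMIs, and was lower at 6 h for the same 3 genes. Epop had 267.9 CPM there in the control library, 185.8 CPM after 3 h and 60.4 CPM after 6 h, and Jarid2 had 279.6, 298.1 and 133.9 CPM. Kdm2b had 44.7, 38.1 and 26.8 CPM in free RNA. These libraries hold 1 cell line, so no cell type lacking the genes was at hand as a background for the shares, which are shares of barcodes with a UMI. With 10% free RNA subtracted, Epop, Jarid2 and Kdm2b had log2 ratios of -1.65, -0.88 and -1.01 at 6 h.

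**Figure D4:**
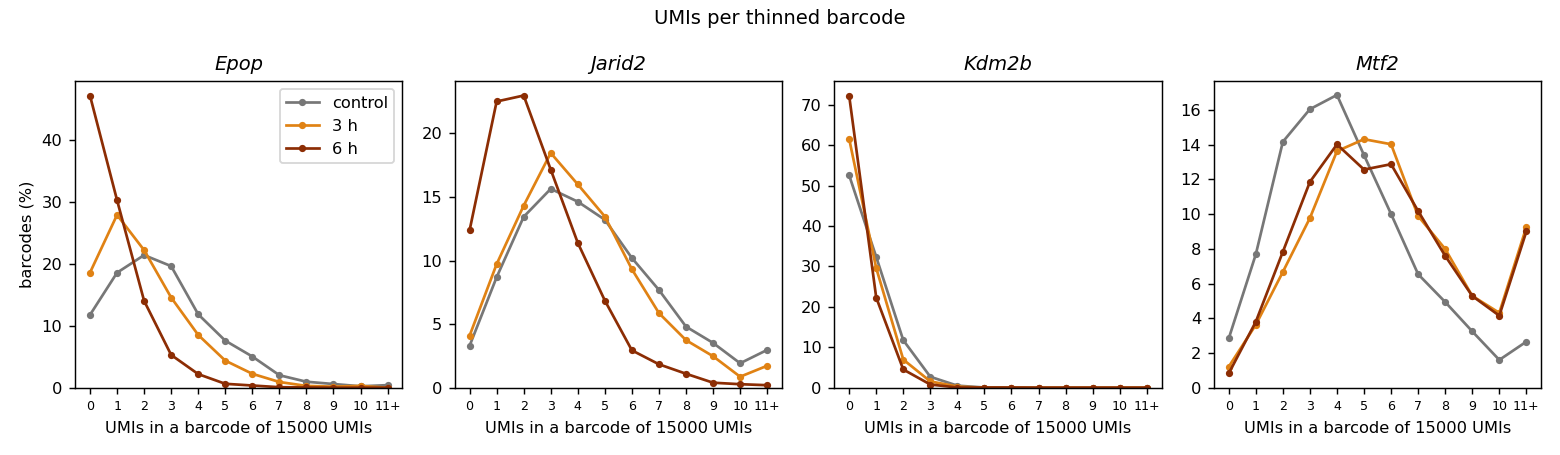
Percent of barcodes (vertical) by number of UMIs of Epop, Jarid2, Kdm2b and Mtf2 in a barcode thinned to 15000 UMIs (horizontal), for the control (grey), 3 h (orange) and 6 h (brown). For Epop the barcodes without a UMI go from 11.8% in the control to 47.1% at 6 h, and the Mtf2 curves shift to the right in both treated libraries.

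Spread among barcodes was described by the excess squared coefficient of variation (CV), which is the part of the variance above the mean, divided by the squared mean, in thinned counts. Over 6031 genes its median was 0.0749 in control cells, 0.0746 after 3 h and 0.0773 after 6 h. Epop had 0.181, 0.223 and 0.447, at percentiles 92.0, 95.5 and 96.5 among the 200 genes nearest to it in mean. A second thinning gave 0.149, 0.157 and 0.360. Jarid2 lay at percentiles 95.5, 90.5 and 94 and Mtf2 at 95, 90 and 94, so these 3 accessory genes varied more between barcodes than most genes of like mean in each library. Ring1, under the floor of 0.2 UMIs per thinned barcode used here, was not placed. The other members, core and accessory, had no common place. Of the core genes, Suz12 lay at 67.5, 87.0 and 89.0, Ezh2 at 65.5, 53.5 and 65.0, Rnf2 at 64, 50 and 6.5, and Eed at 36.5, 45.5 and 48.0. Of the accessory genes, Kdm2b lay at 53.5, 46.0 and 93.5 and Pcgf6 at 63.0, 3.0 and 10.0, so high spread did not separate accessory from core members. All percentiles come from the first thinning. In the second, the excess squared CV at 6 h went from 0.376 to 0.170 for Kdm2b and from 0.002 to 0.040 for Rnf2. For Pcgf6 in the control it went from 0.109 to 0.051. Doublets were not removed, and their part in this spread was not tested.

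Cell cycle assignments differed between the libraries, so the members were also read within assigned phases. Barcodes assigned to S phase made up 38.3% of control barcodes, 74.5% after 3 h and 86.1% after 6 h, and those assigned to G2M 61.4%, 25.1% and 13.0%. These assignments rest on transcripts that themselves differed between libraries and are not measures of DNA content. Within the control, S against G2M barcodes gave small log2 ratios. Mtf2 had the lowest, -0.29 (-0.33 to -0.26), under the 5th percentile of all genes (-0.25), and Eed the highest, 0.12 (0.08 to 0.16). The other members lay between -0.09 and 0.09. At 6 h the S against G2M ratio was -0.53 for Mtf2 and -0.34 for Epop, both under the 5th percentile of all genes there (-0.33).

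Epop at 6 h against control had a log2 ratio of -1.71 (-1.76 to -1.67) among S barcodes and -1.45 (-1.53 to -1.37) among G2M barcodes. Jarid2 had -0.86 and -0.82, and Kdm2b -0.99 and -0.91. Mtf2 was higher within each phase than over all barcodes, with 0.54 among S and 0.78 among G2M barcodes, the latter past 1.5-fold. Eed had 0.33 and 0.39, and Pcgf6 0.43 and 0.32. Ezh2, Suz12 and Rnf2 lay between -0.12 and 0.15 within phases.

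**Figure D5:**
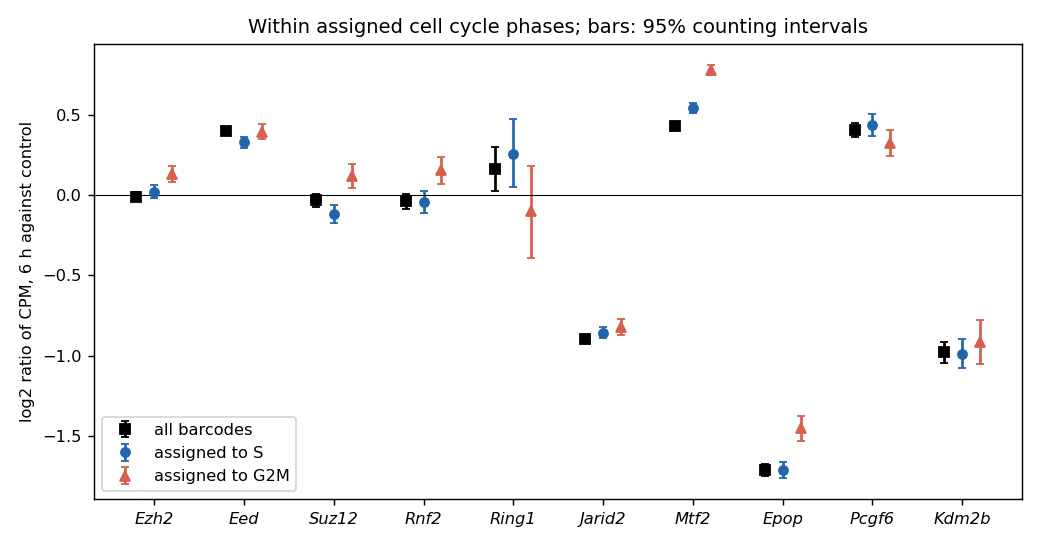
Log2 ratio of CPM at 6 h against control (vertical) for each member over all kept barcodes (squares), those assigned to S (circles) and to G2M (triangles), with 95% counting intervals. Epop, Jarid2 and Kdm2b are below 0 in each set, and Mtf2 goes from 0.43 over all barcodes to 0.78 among G2M barcodes.

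Other genes of the Polycomb system were read from lists of 55 subunits, partners and H3K27 demethylases, of which 54 matched and 38 averaged 10 CPM or more. At 3 h, 6 of these 38 were at least 1.5-fold higher, or 15.8% beside 13.9% of all genes, and 0 were lower, beside 2.13%. At 6 h 6 were higher, or 15.8% beside 22.1%, and 5 were lower, or 13.2% beside 7.79%. The counts depended on the scaling. TMM factors gave 1 higher (2.63% beside 8.6% of all genes) and 2 lower (5.26% beside 5.23%) at 3 h. At 6 h they gave 4 higher (10.5% beside 11.6%) and 9 lower (23.7% beside 16.9%). By mean UMIs per barcode 7 were higher (18.4% beside 30.1%) and 0 lower (beside 0.775%) at 3 h. On that scale 10 were higher (26.3% beside 27.8%) and 4 lower (10.5% beside 5.49%) at 6 h. Their median log2 ratios, 0.03 and 0.16, are set beside 0.11 and 0.17 for all genes tested. In CPM, 0 of the 7 other PRC2 genes above the floor passed 1.5-fold at either time. By TMM factors Elob (log2 ratio -0.84) and Lcor (-0.74) passed lower at 6 h, and by mean UMIs per barcode Lcorl (0.68) passed higher at 6 h. The 2 Elongin partners of Epop went opposite ways, Elob from 987.7 to 816.2 and 672.5 CPM and Eloc from 307.4 to 338.9 and 407.6 CPM. By TMM factors the 3 h value of Eloc was slightly below the control.

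Among the 22 other PRC1 genes above the floor, 4 were at least 1.5-fold higher at 6 h in CPM, or 18.2% beside 22.1% of all genes, and 2 were lower, or 9.09% beside 7.79%. These shares were near those of all genes. By TMM factors Cbx7 (-0.64) and Cbx3 (-0.62) also passed lower, and Fbrsl1 (0.57) no longer passed higher. This gave 13.6% higher beside 11.6% of all genes, and 18.2% lower beside 16.9%. By mean UMIs per barcode Phc2, Yaf2 and Max also passed higher, which gave 31.8% beside 27.8%. The 2 genes lower in CPM, which were lower under each scaling, encode Pcgf proteins that define further PRC1 forms. Pcgf2 stood at 48.2 CPM without cycloheximide, 33.8 CPM after 3 h of it and 24.6 CPM after 6 h, a log2 ratio of -0.97 at 6 h, and Pcgf3 had 16.8, 11.9 and 9.18 CPM, a log2 ratio of -0.87. Pcgf1, the Pcgf protein of the complex that contains Kdm2b, went the other way, from 6.86 to 10.8 and 13.1 CPM (log2 ratio 0.94). Rybp, which stimulates variant PRC1, went from 52.1 to 79.3 and 98.4 CPM (0.92). Phc3, a polyhomeotic subunit of canonical PRC1, and Fbrsl1, of a Pcgf3 and Pcgf5 form, had 1.01 and 0.86 at 6 h.

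The deubiquitinase that removes the PRC1 mark and the H3K27 demethylases also split. Hcfc1, a partner of the deubiquitinase, stood at 76.5 CPM without cycloheximide, 59.4 CPM after 3 h of it and 33.5 CPM after 6 h, a log2 ratio of -1.19 at 6 h. Bap1, its catalytic subunit, had -0.81 at 6 h, and Asxl1, the cofactor of Bap1, had 0.63. Kdm6a, an X-linked H3K27 demethylase, went from 28.0 to 42.1 and 55.8 CPM (log2 ratio 0.99 at 6 h). Kdm6b, its paralog, went from 40.3 to 31.3 and 26.5 CPM (-0.61). Of the 7 listed deubiquitinase genes above the floor, 1 was at least 1.5-fold higher at 6 h in CPM, or 14.3% beside 22.1% of all genes. Lower were 2, or 28.6% beside 7.79%. The rest had log2 ratios between -0.15 and 0.29 at 6 h. By TMM factors Asxl1 (0.34) no longer passed at 6 h, which left 0 of the 7 higher, beside 11.6% of all genes. By mean UMIs per barcode Kdm6b (-0.50) no longer passed. Hcfc1, Bap1 and Kdm6a passed at 6 h under each scaling. The paralogs and partners named here were those past 1.5-fold in CPM, and they differed in direction, as did some of the 10 members.

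Known Polycomb targets were read as a list of 24 developmental regulators, none of which reached a mean of 10 CPM. Gata4, Gata6, Sox17, Cdx2, Sox1, Pax6 and Neurog2 of this list also stand among the lineage markers above. Their summed level was 18.8 CPM without cycloheximide, 28.3 CPM after 3 h and 25.3 CPM after 6 h, with intervals of 18.0 to 19.6, 27.3 to 29.4 and 24.5 to 26.1 CPM. Sox1 gave 763 of the 2090 UMIs of this sum in the control. The log2 ratio of the sum in CPM was 0.60 after 3 h (0.51 to 0.68) and 0.43 after 6 h of exposure (0.35 to 0.51). It moves with the scaling as every ratio does. On the CPM scale, intervals of single genes lay above 0 for 14 of 24 at 6 h (58.3%) and below 0 for 2 (8.33%). Of the 10984 genes in the same range of mean level (0.0166 to 7.9 CPM), 43.8% had an interval above 0 and 12.7% one below 0, so low genes as a whole also leaned upward. By TMM factors the counts at 6 h were 10 of 24 above 0 (41.7%) and 3 below, beside 33.3% and 19.4% of those genes. Foxa2, an endoderm regulator, had 31 UMIs in control cells, 159 after 3 h and 211 after 6 h. Wt1, a kidney and gonad regulator, had 79, 45 and 18 UMIs. The same sum in free RNA was 26.96, 26.6 and 26.5 CPM, above the level in control barcodes and close to that in treated barcodes.

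Structure from GENCODE M21 set Epop apart from the other members. Its principal transcript had 1 exon, as in 160 of 7494 genes with a transcript model (2.14%), whereas the other members had 7 to 23 exons. The annotated 3' untranslated regions of the members ran from 286 bases (Eed) to 2062 bases (Mtf2), around a median of 936 over the genes tested. The pentamer ATTTA, read on the sense strand, occurred 0 times in that region of Epop and of Ring1 and 9 times in that of Rnf2, and 66.4% of the genes tested had at least 1 copy. Jarid2 had 3 copies, Kdm2b 4, Mtf2 5 and Pcgf6 4, so the lower and the higher accessory genes overlapped in this count. Eed, Rnf2, Mtf2 and Kdm2b overlap annotated genes on the opposite strand, and the sources used here do not state whether counting used strand.

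Genes with a pattern most like that of Epop were found by distance in the 2 log2 ratios against control, over the 3 libraries and 5569 genes of at least 20 CPM. The nearest were Erf, a repressor that is a substrate of ERK (distance 0.13), Slc7a5, an amino acid transporter (0.16), Ahdc1 (0.21), F2rl1 (0.21) and Tuba4a, an alpha tubulin (0.23). Only these 5 genes lay within 0.25 of Epop. Around Ezh2, 1564 genes lay within that distance. The closest there were Tmem120a, Rp9, Mrps15, Cystm1 and Ndufv2, at distances of 0.003 to 0.01.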

How the data were processed

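The authors deposited raw UMI counts per gene and barcode for 3 libraries, made with Cell Ranger 4 per the file headers (4.0.0 and build mm10 per the submitters' processing notes). The annotation is not given in the sources used here. Cells had not been called, so barcodes with at least 15000 UMIs and 1 to 20% mt- UMIs were kept, and 62 control barcodes, 1 at 3 h and 8 at 6 h fell under 1%. Counts were summed per library and scaled to CPM, and log2 ratios used a prior of 0.5 counts. Gene intervals are exact Poisson or conditional binomial intervals, shares have exact Clopper-Pearson intervals, and intervals of median differences and transcript ratios use the Poisson variance of logs, all at 95%. No doublet caller was run. Thinning was without replacement. Phases followed the scanpy 1.11.5 rule over the 3 libraries together. TMM factors came from edgeR 4.0.16 in R 4.3.3, other steps from Python 3.11.15 with numpy 2.4.6 and scipy 1.17.1. Positions are those of GENCODE M21 on GRCm38, matched by identifier (32235 of 32285). Ratios and intervals were run on simulated Poisson counts without variation between barcodes or replicate libraries. That run checks the calculation only, not how well the intervals cover real variation. All 10 members are named, as are other listed Polycomb genes of at least 10 CPM past 1.5-fold against control, and the 5 genes nearest to Epop and to Ezh2. Elob, Eloc, Lcor, Lcorl, Cbx7, Cbx3, Phc2, Yaf2, Max, Foxa2 and Wt1 were named after their values were seen. Members and lists were chosen with earlier results of these data known. Alternatives covered scaling, barcode filters, free RNA, thinning, phase, prior, fold, floor and grouping. The counts of other Polycomb genes under the other scalings, the 2-fold count by TMM factors and the comparison of targets with genes of like level were added after seeing the data.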

Additional observations from a re-analysis of the deposited data

Results flagged for a closer look

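Free RNA, read from barcodes of 10 to 100 UMIs that the comparisons of kept barcodes do not use, held 3 members above the level in the control library. Mtf2 had a log2 ratio in free RNA of 0.46 after 3 h (counting interval 0.33 to 0.59) and 0.37 after 6 h of exposure (0.25 to 0.50), close to its 0.43 in kept barcodes. Eed had 0.26 in free RNA at 3 h (0.13 to 0.40) and 0.12 at 6 h (-0.009 to 0.25), the latter with an interval that included 0, beside 0.40 in kept barcodes. Suz12 had 0.35 in free RNA at 3 h (0.15 to 0.55), on 447 UMIs against 381, and 0.17 at 6 h (-0.03 to 0.37), while its log2 ratio in kept barcodes was -0.06 at 3 h and -0.03 at 6 h. Each value compares 1 library with 1 library, and the difference between free RNA and kept barcodes was not tested.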

How the results depend on the processing

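The 3 lower members at 6 h stayed 3 under every scaling, filter, free RNA, thinning and phase setting, and became 1 with a fold of 2, or 3 with a fold of 2 by TMM factors, a setting chosen after seeing the data. At 6 h against 3 h the 2 lower members became 1 with a fold of 2, in CPM or by TMM factors, and 3 with a fold of 1.5 by TMM factors or mean UMIs per barcode. At 3 h the count of lower members went from 0 to 2 by TMM factors, and the count of higher members from 0 to 2 by mean UMIs per barcode. At 6 h it went from 0 to 1 among G2M barcodes. With Pcgf6 grouped as core, the accessory minus core difference was -0.405 at 3 h, -1.014 at 6 h and -0.662 at 6 h against 3 h. Without Epop it was 0.026, which reversed it, -0.234 and -0.288, and among G2M barcodes it was -0.952 at 6 h. Some ratios whose interval in CPM included 0 also changed sign with the scaling. Among them, Rnf2 at 3 h had -0.127 by TMM factors. By mean UMIs per barcode at 6 h, Ezh2 had 0.10, Suz12 0.07 and Rnf2 0.07. Mtf2 at 6 h against 3 h had -0.11 by TMM factors and -0.16 by mean UMIs per barcode. Signs that reversed where the interval excluded 0 were all of small ratios and are listed next. By mean UMIs per barcode at 3 h, Ezh2 had 0.172, Suz12 0.213 and Jarid2 0.119. Suz12 at 3 h had 0.009 without mitochondrial limits and 0.014 when thinned. Ring1 at 3 h had -0.007 by TMM factors and -0.057 when thinned, and at 6 h -0.123 by TMM factors and -0.098 among G2M barcodes. At 6 h against 3 h, TMM factors gave -0.026 for Ezh2, -0.090 for Eed and -0.004 for Pcgf6, mean UMIs per barcode gave -0.075, -0.139 and -0.054, and Rnf2 had 0.046 among G2M barcodes. Without a floor on CPM the share of genes past 1.5-fold was 28.5% higher and 10.4% lower at 3 h, 40.2% and 12.2% at 6 h, and 22.7% and 9.34% between both times. With a floor of 50 CPM these were 8.78% and 1.33%, 15.2% and 6.54%, and 0.715% and 2.01%. Beyond the scalings, the cause was not tested. Depth limits Ring1, with 743 UMIs in the control. No paired analysis was possible because each group has 1 library.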

Other observations

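Epop was 1 of 19 single-exon genes, out of 160, that were at least 1.5-fold lower at 6 h (11.9%), beside 7.64% of 7334 genes with more exons. Single-exon genes as a whole lay the other way. Against control they had a median log2 ratio of 0.52 after 3 h and 0.45 after 6 h, and genes with more exons had 0.11 and 0.16. At 6 h 41.2% of the single-exon genes and 21.2% of genes with more exons were at least 1.5-fold higher. This class was looked at after the structure of Epop had been seen, and no test was made.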
